A study of Homo sapiens with 12 samples.

Results

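Antisense long noncoding RNAs are transcribed from the DNA strand opposite a sense gene, whose symbol they carry with the ending -AS and a number. The genes described here were chosen by that ending, matched through their Ensembl identifiers, and by a level of at least 1 TPM, the abundance of a transcript scaled for its length and to the same total in each library, in 3 of 12 libraries or more. Of the 62703 genes listed, 1825 carried the ending, and 353 of these met the level. The other 1472 did not, and 612 were listed at 0 in every library. The level was a measured value, so it is a description of the choice and not a result. The third-highest TPM was 1.0 for NAPA-AS1 and TMSB15B-AS1 and 1.01 for MNX1-AS2, just inside the limit, and 0.99 for DENND3-AS1, DMTF1-AS1 and SLC7A14-AS1, just outside it.

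The RNA came from HK2 cells, an immortalised line of human proximal tubule epithelium and therefore a single cell line, in 4 groups of 3 libraries. NG cells received a control vector and grew in 5.5 mM glucose, and HG cells grew in 50 mM glucose. The si-FGF9 cells were given a small interfering RNA against FGF9 in 5.5 mM glucose. HG+OE-FGF9 cells were given a viral vector that overexpresses FGF9 in 50 mM glucose. The labels and methods give NG 5.5 mM glucose, while another passage of the study speaks of mannitol in the NG medium. Whether NG and HG differ in osmolarity is therefore not settled here. No non-targeting siRNA is described for these cells, so the FGF9 siRNA and the transfection with it cannot be told apart in si-FGF9 versus NG. No vector is described for the HG cells, so vector and glucose cannot be told apart in HG versus NG. Likewise, vector and FGF9 cannot be told apart in HG+OE-FGF9 versus HG. The viral vector is a lentivirus in the methods and an adenovirus in another passage of the study. The question of the study was which genes respond to high glucose and to FGF9, a fibroblast growth factor of the developing kidney. Nothing in the labels names the 3 libraries of a group as separate cultures, so p-values measure the spread between these libraries, which may be technical.

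An antisense transcript can share exons with its sense gene, lie inside one of its introns, or start beside it and run the other way from a shared promoter. Such RNAs are mostly rarer than messenger RNAs, and some are known to act on the gene they face, by opening or closing its chromatin, by pairing with its messenger RNA or by the act of transcription itself, while for most no role is known.

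By the GENCODE release 29 annotation of GRCh38, 254 of the 353 antisense genes shared exon bases with the sense gene of their name on the opposite strand, 63 overlapped it without sharing exons and 23 did not overlap it. For 9 genes, mostly of the HOX clusters, no sense gene of that name is annotated, 3 were not in this release, and 1, FAM131B-AS2, is annotated on the same strand as FAM131B. Among 340 genes with both positions, 111 started within 1000 bases of the start of the sense gene, on the opposite strand, here called head to head. Of these, 86 also shared exon bases. The rule set only the distance between the starts, so it includes genes that start inside the sense gene and run out across its start. Where exons were shared, the median share of the antisense exon bases under sense exons was 12.93%. In 39 genes more than 50% of the exon bases lay under exons of an opposite-strand gene, and in 5 genes all did. Whether the counting used strand is not given in the sources used here, so reads of an antisense gene and of a sense gene that covers it cannot be told apart, and this touches the 39 genes most.

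The promoters of 6 antisense genes that carry the results are shown first, because they span several arrangements: shared with the sense gene, close to it, far inside it or beyond its end. Each is a RefSeq window on GRCh38.p14, from 250 bases before to 50 bases after the annotated start, written 5′ to 3′ on the strand of the antisense gene. Capitals mark matches on either strand to 6 motifs. TGACTCA is the AP-1 site. TGACGTCA is the cyclic AMP response element. CACGTG is an E-box. ACGTG is the core of the hypoxia response element and lies within the E-box. TATAAA is the TATA box. GGGCGG is the GC box.
IER3-AS1, chr6:30742713-30743012, plus strand: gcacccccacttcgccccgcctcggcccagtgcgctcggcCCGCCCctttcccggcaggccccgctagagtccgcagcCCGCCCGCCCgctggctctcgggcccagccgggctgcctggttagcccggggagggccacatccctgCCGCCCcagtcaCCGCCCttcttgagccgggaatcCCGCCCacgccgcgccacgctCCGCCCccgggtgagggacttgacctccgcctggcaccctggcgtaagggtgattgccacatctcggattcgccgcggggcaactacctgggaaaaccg
TUBA1B-AS1, chr12:49131356-49131655, plus strand: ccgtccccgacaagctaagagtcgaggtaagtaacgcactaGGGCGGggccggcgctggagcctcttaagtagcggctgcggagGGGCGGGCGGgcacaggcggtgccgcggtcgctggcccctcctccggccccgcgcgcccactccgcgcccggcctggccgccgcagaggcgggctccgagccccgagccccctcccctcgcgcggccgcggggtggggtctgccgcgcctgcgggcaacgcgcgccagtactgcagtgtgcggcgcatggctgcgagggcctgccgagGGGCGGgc
LIPE-AS1, chr19:42396898-42397197, plus strand: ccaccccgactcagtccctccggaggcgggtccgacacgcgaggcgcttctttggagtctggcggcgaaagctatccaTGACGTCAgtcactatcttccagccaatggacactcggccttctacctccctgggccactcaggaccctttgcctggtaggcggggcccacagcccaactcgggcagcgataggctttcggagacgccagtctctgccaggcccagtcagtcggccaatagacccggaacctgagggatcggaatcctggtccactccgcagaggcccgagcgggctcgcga
THAP9-AS1, chr4:82900867-82901166, minus strand: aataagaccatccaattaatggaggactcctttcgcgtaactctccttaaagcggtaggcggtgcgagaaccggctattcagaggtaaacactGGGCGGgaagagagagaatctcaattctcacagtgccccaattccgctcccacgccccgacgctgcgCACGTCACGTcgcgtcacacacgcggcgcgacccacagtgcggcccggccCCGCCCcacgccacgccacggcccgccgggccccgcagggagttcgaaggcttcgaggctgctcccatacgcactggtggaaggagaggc
HIF1A-AS3, chr14:61751048-61751347, minus strand: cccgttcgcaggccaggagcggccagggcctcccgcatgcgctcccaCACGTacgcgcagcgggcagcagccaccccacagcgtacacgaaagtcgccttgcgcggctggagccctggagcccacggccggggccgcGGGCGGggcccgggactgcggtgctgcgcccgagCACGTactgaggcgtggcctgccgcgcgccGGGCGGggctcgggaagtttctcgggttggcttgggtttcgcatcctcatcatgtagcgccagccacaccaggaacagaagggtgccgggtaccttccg
RBMS3-AS2, chr3:29642767-29643066, minus strand: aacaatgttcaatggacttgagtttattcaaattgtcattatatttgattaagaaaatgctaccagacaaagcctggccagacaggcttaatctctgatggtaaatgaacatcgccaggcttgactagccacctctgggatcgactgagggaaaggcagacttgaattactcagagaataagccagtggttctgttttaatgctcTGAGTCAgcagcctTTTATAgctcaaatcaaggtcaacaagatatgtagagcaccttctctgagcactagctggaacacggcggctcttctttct

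The window of TUBA1B-AS1 shares 290 of its bases with that of TUBA1B, so the same DNA is the annotated promoter of both. The IER3-AS1 window held 7 matches to the GC box, that of LIPE-AS1 a single cyclic AMP response element, and those of THAP9-AS1 and HIF1A-AS3 2 matches each to the hypoxia core. RBMS3-AS2 had the lowest GC content of the 6, 42.7% against 78.0% for TUBA1B-AS1, with 1 match each to the AP-1 site and to the TATA box. Windows were found for 274 of the 353 genes, 347 in all. The GC box occurred in 57.64% of these and in 44.95% of all 35116 windows, the hypoxia core in 25.07% and 21.41%, the E-box in 9.80% and 7.26%, the cyclic AMP element in 3.75% and 1.85%, the AP-1 site in 6.05% and 4.95%, and the TATA box in 6.05% and 11.53%. The median GC content of the windows was 64.33% for antisense genes and 58.67% for all, and a match describes letters only.

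The libraries held 11549 to 13949 genes at a TPM of 1 or above. FGF9 was listed at 0 in all 9 libraries of NG, HG and si-FGF9 and at 3.34, 4.03 and 3.82 in HG+OE-FGF9, so the siRNA could not be checked on its target. The epithelial keratins KRT8, KRT18 and KRT19 were at 210.71 to 677.75 TPM and GGT1, of the brush border, was at 71.65 to 195.31, whereas the defining proximal tubule genes LRP2, CUBN and SLC34A1 were at or near 0, as were CDH1 and the endothelial genes PECAM1, VWF and CDH5. Spliceosomal, nucleolar and Cajal body small RNAs, 68 genes, summed to 15896 and 15933 TPM in HG+OE-FGF9 libraries 1 and 2 and 4869 in library 3, against 169.68 to 640.6 in the other 9. The 37 mitochondrial genes summed to 49385 to 85968 TPM in si-FGF9 and to 113127 to 155574 elsewhere. TPM keep no record of depth, so the counting error of a value is unknown, and in bulk RNA fewer cells with a transcript cannot be told apart from less of it per cell.

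The antisense genes were mostly rare. Their mean TPM over the 12 libraries ran from 0.397 to 568, with a median of 1.95 beside 7.22 for all 14639 genes tested. In 181 genes the mean was under 2, in 93 it was 2 to 5, in 37 it was 5 to 10 and in 42 it was 10 or more. A TPM of at least 1 was seen in all 12 libraries for 130 genes and in exactly 3 for 48. The number of antisense genes at that level was 271 to 273 in NG, 240 to 265 in HG, 262 to 271 in HG+OE-FGF9 and 212 to 230 in si-FGF9. For 21 genes the libraries at or above a TPM of 1 were all of a single group. Of these, 12 came in through NG and 9 through HG+OE-FGF9, and such genes had to differ from the other groups.

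The summed TPM of the 353 genes was 1800 to 1940 in NG, 1610 to 1967 in HG, 2169 to 2802 in HG+OE-FGF9 and 2942 to 3044 in si-FGF9. A single gene, TUBA1B-AS1, made up most of the difference: without it the sums were between 1332 and 1935 in all 12 libraries. Beside their sense genes, antisense genes were above in 104 of 344 pairs by NG means (30.2%), in 123 by HG means (35.8%), in 137 by si-FGF9 means (39.8%) and in 138 by HG+OE-FGF9 means (40.1%). The median antisense level was 18.3% of the sense level in NG, 30.9% in HG, 48.1% in HG+OE-FGF9 and 44.2% in si-FGF9.

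The test was limma on log2(TPM + 1), a scale that understates the change of low genes. A gene was called, and is said to have risen or fallen, when its log2 fold change was 1 or more, up or down, and its unadjusted p was under 0.01. The 3 comparisons are not independent, since HG versus NG shares NG with si-FGF9 versus NG and HG with HG+OE-FGF9 versus HG. For any 1 gene, the smallest p that an exact two-sided permutation test over 3 and 3 libraries allows is 0.1. The antisense genes had a median log2 fold change of -0.12 beside -0.39 for all genes in HG versus NG. The 2 medians were -0.23 and -0.79 in si-FGF9 versus NG, and 0.14 and -0.13 in HG+OE-FGF9 versus HG.

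In HG versus NG, 24 of the 353 antisense genes were called (6.80%), where 24.4% of all genes tested were. Of these, 8 rose (background 1.65%) and 16 fell (background 22.7%), and in limma the Benjamini-Hochberg adjusted p was under 0.05 for all 24. In si-FGF9 versus NG, 80 were called (22.7%, background 47.6%), 26 higher (background 5.36%) and 54 lower (background 42.2%), again all with an adjusted p under 0.05. In HG+OE-FGF9 versus HG, 25 were called (7.08%, background 5.61%), 23 higher (background 2.94%) and 2 lower (background 2.67%), 23 of them with an adjusted p under 0.05. Genes confined to a single group at a TPM of 1 made up 5 of the 16 falls in HG, 6 of the 54 falls in si-FGF9 and 6 of the 23 rises in HG+OE-FGF9, and 0 of the other calls. In all, 103 antisense genes were called in at least 1 comparison.

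The direction of the calls in the first 2 comparisons turned with the scaling. With scaling by the median of ratios, which takes the median of all genes to about 0, 16 antisense genes were higher and 4 lower in HG (4.53% and 1.13%, against 7.26% and 8.47% of all genes), and 83 were higher and 12 lower in si-FGF9 (23.5% and 3.4%, against 18.9% and 17.8%). After a correction for GC content 26 were higher and 3 lower in HG (7.43% and 0.857%, against 3.78% and 3.06% of all genes). In si-FGF9 91 were higher and 9 lower (26% and 2.57%, against 12.3% and 12%). This correction shifts a gene at or near 0 as much as an abundant gene of the same GC content. It can therefore add differences at low levels, where most antisense genes lie, and its part in these counts was not tested. In HG+OE-FGF9 the antisense genes higher and lower were 26 and 2 with the median of ratios and 25 and 1 with the GC correction, beside the 23 and 2 of the TPM as deposited. With a pseudocount of 0.1 they were 24 and 11 there (6.8% and 3.12%, against 3.27% and 4.74% of all genes). The GC content of a gene and its log2 fold change had a Spearman's rho of 0.383 among the antisense genes and 0.636 among all genes in HG versus NG, 0.284 and 0.566 in si-FGF9 versus NG, and 0.021 and 0.288 in HG+OE-FGF9 versus HG. All 16 falls in HG were among the antisense genes with a GC content under their median of 49.2%, and 6 of the 8 rises were at or over it.

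**Figure D1:**
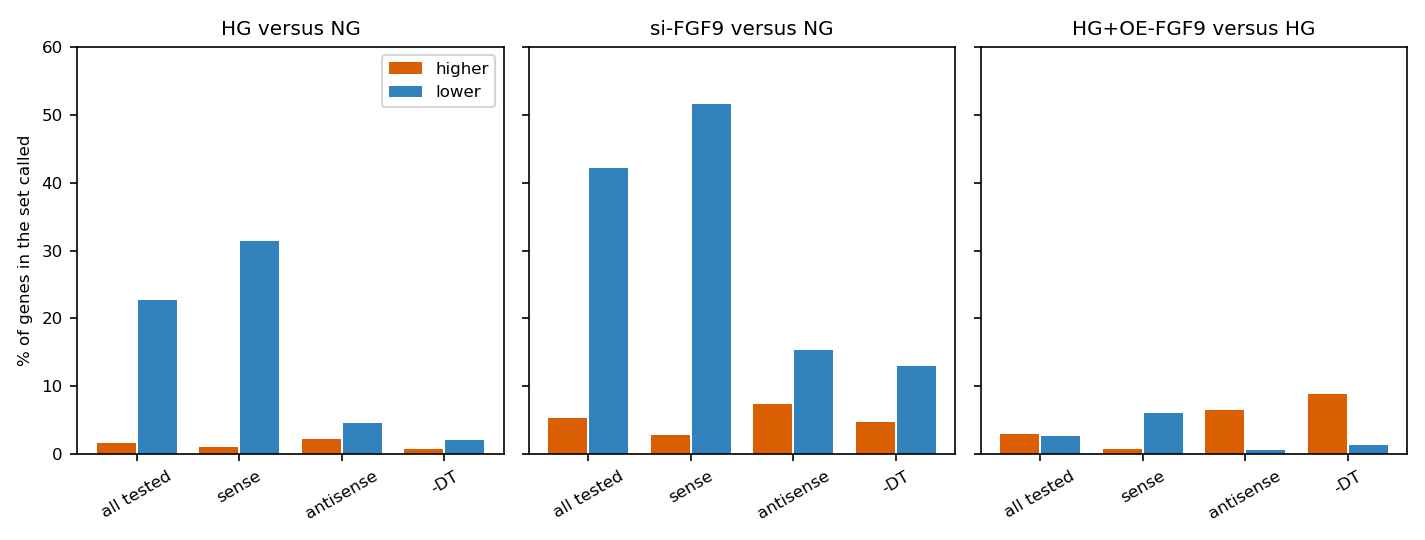
Share of genes called (bars, % of the genes in each set) as higher (orange) or lower (blue) in each comparison, for all 14639 genes tested, the 283 tested sense genes, the 353 antisense genes and 147 divergent transcripts (-DT). Antisense genes were called lower in 4.53% against 31.4% of their sense genes in HG versus NG and in 15.3% against 51.6% in si-FGF9 versus NG on the TPM as deposited, and with other scaling most antisense calls in these 2 comparisons were higher.

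Other transcripts named after a neighbour were counted the same way. Of 147 divergent transcripts with the ending -DT that met the same level, 4 were called in HG (1 higher, 3 lower), 26 in si-FGF9 (7 higher, 19 lower) and 15 in HG+OE-FGF9 (13 higher, 2 lower). Of the 283 sense genes tested, 92 were called in HG (3 higher, 89 lower), 154 in si-FGF9 (8 higher, 146 lower) and 19 in HG+OE-FGF9 (2 higher, 17 lower). By level, the antisense genes called with a mean TPM under 5 were 10, 52 and 17 of 274 (in HG, then si-FGF9, then HG+OE-FGF9), and of the 79 genes at 5 or more they were 14, 28 and 8. In the same order, the shares of all genes called were 22.8%, 44.7% and 6.01% under 5 and 25.5%, 49.6% and 5.33% at 5 or more.

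The largest log2 fold change was that of IER3-AS1 in si-FGF9. It lies opposite IER3, an immediate early gene induced by growth factors and stress. It spans chr6:30742929-30743592 on the plus strand of GRCh38, and 68.1% of its exon bases lie under exons of IER3. Its TPM was 3.57, 1.5 and 1.95 in NG, 1.19, 6.55 and 5.54 in HG, 22.27, 11.83 and 3.27 in HG+OE-FGF9 and 256.84, 212.49 and 164.21 in si-FGF9. The 3 si-FGF9 libraries stood above all others without overlap, the HG libraries overlapped NG, and HG+OE-FGF9 library 3 lay within the HG range. On the log2 scale it rose by 6.01 ± 0.57 (SE) in si-FGF9 (limma, Benjamini-Hochberg adjusted p = 8.48e-06), with 0.56 ± 0.57 in HG and 1.19 ± 0.57 in HG+OE-FGF9, neither called. Without HG+OE-FGF9 library 3 the last value was 1.86 and was called. The sense gene IER3 was at 397 to 422 TPM in NG and 260 to 307 in si-FGF9, a log2 fold change of -0.54 that was not called. In si-FGF9 the antisense gene averaged 211 ± 46.3 TPM (SD, n = 3) beside 280 ± 24.5 for IER3, and in NG 2.34 ± 1.09 beside 407 ± 13.2.

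IER5L-AS1 faces the start of IER5L, a relative of the immediate early gene IER5, with 16.0% of its exon bases under IER5L exons. Its TPM was 0.37, 0.69 and 1.38 in NG, 1.56, 4.69 and 5.27 in HG, 9.56, 10.52 and 0.69 in HG+OE-FGF9 and 54.07, 48.06 and 30.7 in si-FGF9. The si-FGF9 libraries were again the highest, HG did not overlap NG, and HG+OE-FGF9 library 3 fell below every HG library. It rose by 4.64 on the log2 scale in si-FGF9 (limma, adjusted p = 4.46e-05). The 1.35 in HG was not called, nor was the 0.39 in HG+OE-FGF9, which was 1.29 and called without library 3. Here the sense gene moved the same way: IER5L was at 8.25 to 11.85 TPM in NG and 21.68 to 59.15 in si-FGF9 and rose by 1.88 (adjusted p = 0.000462).

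ARAP1-AS1 rose in both HG and si-FGF9. Its sense gene ARAP1 encodes an adaptor that switches off small GTPases and acts in receptor traffic, and 99.2% of the antisense exon bases lie under ARAP1 exons, near the end of that gene, in chr11:72685075-72693808. The TPM of ARAP1-AS1 was 0, 2.73 and 1.04 in NG, 12.12, 19.55 and 7.61 in HG, 25.82, 33.9 and 12.36 in HG+OE-FGF9 and 45.02, 36.36 and 60.59 in si-FGF9. All HG and si-FGF9 libraries lay above all NG libraries, and HG+OE-FGF9 overlapped HG. The log2 fold change was 2.75 ± 0.48 (SE) in HG (limma, adjusted p = 0.00145), 4.59 ± 0.48 in si-FGF9 (adjusted p = 1.26e-05) and 0.81 ± 0.48, not called, in HG+OE-FGF9. ARAP1 itself was at 13.17 to 15.17 TPM in NG, 11.15 to 14.75 in HG and 8.25 to 11.1 in si-FGF9 and was called in none of the 3 comparisons, so that the antisense gene passed its sense gene in every si-FGF9 library.

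TUBA1B-AS1, opposite the alpha-tubulin gene TUBA1B, was the most abundant antisense gene. It was at 117.25, 207.81 and 177.57 TPM in NG, 159.87, 291.25 and 189.7 in HG, 915.38, 806.07 and 390.59 in HG+OE-FGF9 and 1098.94, 1018.67 and 1442.84 in si-FGF9. Both si-FGF9 and HG+OE-FGF9 lay above NG and HG without overlap. It rose by 2.84 in si-FGF9 (limma, adjusted p = 1.88e-05) and by 1.67 in HG+OE-FGF9 (adjusted p = 0.0095), and the 0.34 in HG was not called. TUBA1B was at 1514 to 1777 TPM in NG, 1432 to 2233 in HG+OE-FGF9 and 1049 to 1199 in si-FGF9. Since 80.2% of the exon bases of TUBA1B-AS1 in GENCODE release 29 lie under TUBA1B, which also has near-identical relatives, its TPM are uncertain.

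For ARAP1-AS1 and TUBA1B-AS1, the exons run through coding sequence of the sense gene, so that both RNAs hold the same bases as reverse complements. A stretch of 30 bases from the first pair, read from the GENCODE release 29 transcripts, shows what a library without strand would merge, in chr11:72693768-72693797.
ARAP1-AS1: gatgggcagcaccttctccgcaaagtgcag
ARAP1: ctgcactttgcggagaaggtgctgcccatc
The shared coding bases amounted to 38 for ARAP1-AS1 and 854 for TUBA1B-AS1.

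DNAJC9-AS1 is listed under 2 identifiers, and the called one (ENSG00000236756) has 5.58% of its exon bases under DNAJC9, a chaperone of histones. Its TPM was 1.28, 0.02 and 1.1 in NG, 18.03, 31.89 and 0.75 in HG, 29.92, 32.45 and 14.92 in HG+OE-FGF9 and 15.06, 16.27 and 30.74 in si-FGF9. Library 3 of HG stood with NG, so the groups overlapped although the gene was called higher in HG, by 2.60 (limma, adjusted p = 0.0224), a call that was lost with the replicate block, with 6 libraries alone, with no filter on low values, without any 1 of the NG libraries or without HG library 1 or 2. In si-FGF9 it rose by 3.61 without overlap (adjusted p = 0.00209). DNAJC9 fell by 1.04 there.

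**Figure D2:**
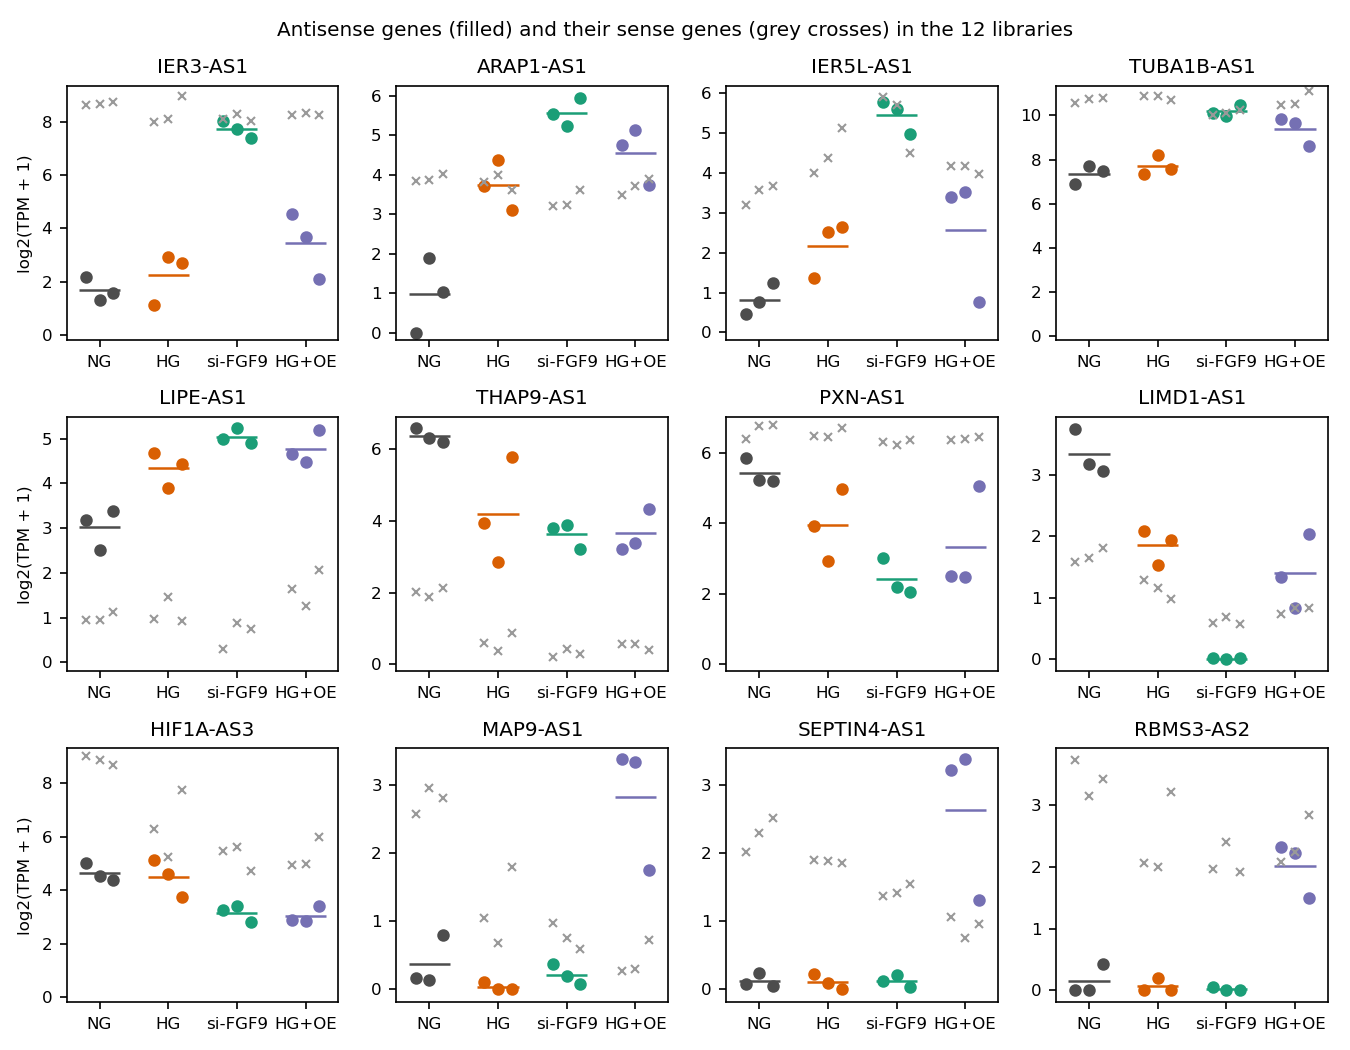
log2(TPM + 1) of 12 antisense genes (filled points, 1 per library, bars at the group mean) and of their sense genes (grey crosses) in the 4 groups, with HG+OE-FGF9 labelled HG+OE. IER3-AS1, ARAP1-AS1, IER5L-AS1 and TUBA1B-AS1 were highest in si-FGF9 while only IER5L of their sense genes rose there, LIMD1-AS1 was at or near 0 in si-FGF9, and MAP9-AS1, SEPTIN4-AS1 and RBMS3-AS2 stood apart in HG+OE-FGF9, with library 3 the lowest.

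The other rises named for HG versus NG were smaller. LIPE-AS1, whose sense gene encodes hormone-sensitive lipase, had 8.13, 4.72 and 9.38 TPM in NG, 24.48, 13.94 and 20.68 in HG, 24.25, 21.18 and 35.42 in HG+OE-FGF9 and 30.79, 36.64 and 28.95 in si-FGF9. NG lay below all 9 other libraries, and the gene rose by 1.31 in HG (limma, adjusted p = 0.00274) and by 2.02 in si-FGF9 (adjusted p = 4.56e-05). LIPE was at 0.24 to 3.16 TPM throughout and was not called. DDN-AS1, beside the gene of dendrin, a podocyte protein, rose by 1.47 in HG and by 1.73 in si-FGF9, from 4.85 to 8.61 TPM in NG to 9.35 to 32.93 and 19.46 to 29.31. Its call in HG was lost with the 6 libraries of that comparison alone.

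RCC2-AS1 lies wholly under exons at the end of RCC2, a regulator of chromosome condensation, on chr1:17406760-17407382. It had 29.43, 22.55 and 13.24 TPM in NG, 42.4, 69.79 and 35.54 in HG, 64.42, 66.24 and 51.34 in HG+OE-FGF9 and 50.5, 45.3 and 82.01 in si-FGF9. NG was the lowest group without overlap, and the antisense gene rose by 1.15 in HG (limma, adjusted p = 0.0107) and by 1.43 in si-FGF9 (adjusted p = 0.00157), the first of these not called without NG library 3 or HG library 2 or with 6 libraries alone. RCC2 went the other way, from 51.46 to 58.63 TPM in NG to 17.22 to 18.68 in si-FGF9, where it fell by 1.57 (adjusted p = 1.93e-05). In the NG libraries the sense gene was above the antisense gene, and in the si-FGF9 libraries below it.

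PPP1R14B-AS1 starts head to head with PPP1R14B, an inhibitor subunit of protein phosphatase 1, and here both genes rose. The antisense gene was at 3.46 to 4.67 TPM in NG, 5.47 to 15.36 in HG and 9.42 to 13.96 in si-FGF9. It rose by 1.12 in HG and by 1.31 in si-FGF9 on the log2 scale, and the call in HG was lost with 6 libraries alone, without NG library 1 or without HG library 1 or 2. PPP1R14B was at 70.8 to 106.02, 160.23 to 269.06 and 238.34 to 255.35 TPM, with 1.25 and 1.48. FAM131B-AS2, annotated on the strand of FAM131B, rose by 1.05 in HG, from 4.87 to 6 TPM to 6.45 to 17.19, and had 0.35 in HG+OE-FGF9 and 0.18 in si-FGF9, not called. Leaving out HG library 1 or 2 or any NG library ended the call in HG, as did the replicate block and the fit of 6 libraries alone.

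THAP9-AS1 fell most in HG. It starts head to head with THAP9, which encodes a protein derived from a DNA transposase, and lies at chr4:82893009-82900960. Its TPM was 94.85, 79.4 and 73.01 in NG, 14.49, 6.29 and 53.85 in HG, 8.34, 9.5 and 19.22 in HG+OE-FGF9 and 13.03, 13.67 and 8.33 in si-FGF9. NG was above all other libraries, and HG library 3 lay closer to NG than libraries 1 and 2 did. It fell by 2.17 ± 0.56 (SE) on the log2 scale in HG (limma, adjusted p = 0.00787) and by 2.74 ± 0.56 in si-FGF9 (adjusted p = 0.000887). The call in HG was lost when the 6 libraries of that comparison were fitted alone. In HG+OE-FGF9 versus HG the value was -0.55, not called. THAP9 fell with it, from 2.67 to 3.34 TPM in NG to 0.3 to 0.83 in HG and 0.15 to 0.35 in si-FGF9, by 1.39 and 1.70.

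HLA-F-AS1, in the class I histocompatibility region, had 15.24, 10.57 and 11.36 TPM in NG, 1.57, 1.12 and 6.77 in HG, 2.56, 1.85 and 1.71 in HG+OE-FGF9 and 1.5, 1.92 and 1.94 in si-FGF9. NG did not overlap any other group. HLA-F-AS1 fell by 1.93 in HG (limma, adjusted p = 0.0024) and by 2.25 in si-FGF9 (adjusted p = 0.000244), of which the second call was lost after the GC correction, at -0.85, and the first after the GC correction with the replicate block, at -1.02. HLA-F was at 35.36 to 43.03 TPM in NG and HG and 27.04 to 27.28 in si-FGF9 and was not called. Among 16 falls in HG, library 3 was the one nearest to the NG mean in 10.

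LIMD1-AS1, opposite the gene of a LIM domain adaptor, had 12.45, 8.03 and 7.37 TPM in NG, 3.25, 1.9 and 2.82 in HG, 1.52, 0.77 and 3.09 in HG+OE-FGF9 and 0.01, 0 and 0.01 in si-FGF9. NG, HG and si-FGF9 did not overlap one another. The fall was 1.48 in HG (limma, adjusted p = 0.00224) and 3.32 in si-FGF9 (adjusted p = 6.98e-06), and the first lost its call after the GC correction, at -0.939. LIMD1 was at 1.99 to 2.48 TPM in NG and 0.49 to 0.6 in si-FGF9, where it fell by 1.06. MCCC1-AS1, with 2.51 to 2.69 TPM in NG, was listed at 0 in 2 HG libraries and all 3 si-FGF9 libraries, while MCCC1, a subunit of an enzyme of leucine breakdown, was at 10.84 to 18.12 TPM in these 3 groups and not called. It is among the genes that met the level through NG alone, and with the GC correction it was called in neither comparison (-0.66 in HG and -0.28 in si-FGF9). At 0 TPM the correction by its construction adds differences, so these values are partly made by it.

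PXN-AS1 lies opposite PXN, which encodes the focal adhesion protein paxillin. The antisense gene had 56.26, 36.73 and 35.58 TPM in NG, 14.24, 6.55 and 30.56 in HG, 4.67, 4.56 and 32.01 in HG+OE-FGF9 and 7.07, 3.6 and 3.13 in si-FGF9. The third libraries of HG and of HG+OE-FGF9 were far above the other libraries of their groups. PXN-AS1 fell by 3.00 in si-FGF9 (limma, adjusted p = 0.0013), and the -1.48 in HG was not called. PXN was at 73.78 to 108.57 TPM in all 12 libraries and was not called in any comparison.

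OTUD6B-AS1 and its neighbour OTUD6B, which encodes a deubiquitinase, start head to head without overlap, and both fell. OTUD6B-AS1 went from 9.43 to 12.02 TPM in NG to 1.94 to 4.86 in HG and 0.57 to 0.84 in si-FGF9, by 1.41 and 2.83 on the log2 scale. OTUD6B went from 7.65 to 9.28 TPM to 1.1 to 4.2 and 1.1 to 1.65, by 1.59 and 2.03. The call of the antisense gene in HG was lost with the median of ratios (-0.945) and with the GC correction (-0.28). TNFRSF10A-AS1, opposite the gene of a TRAIL receptor, fell by 1.34 in HG and by 1.74 in si-FGF9, from 2.22 to 2.83 TPM to at most 0.59. It too met the level through NG alone. With the GC correction these values were -0.25 and -0.16, at low levels where the correction adds differences, and the median of ratios ended the call in HG (-0.982). FGD5-AS1 fell by 1.15 in HG and by 2.21 in si-FGF9, from 18.71 to 20.54 TPM to 5.16 to 13.74 and 2.77 to 4.35, with no call in either after the GC correction (-0.34 and -0.92) and none in HG with the median of ratios or without HG library 2, while FGD5, an exchange factor of endothelial cells, was at 0.04 or less in these groups.

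**Figure D3:**
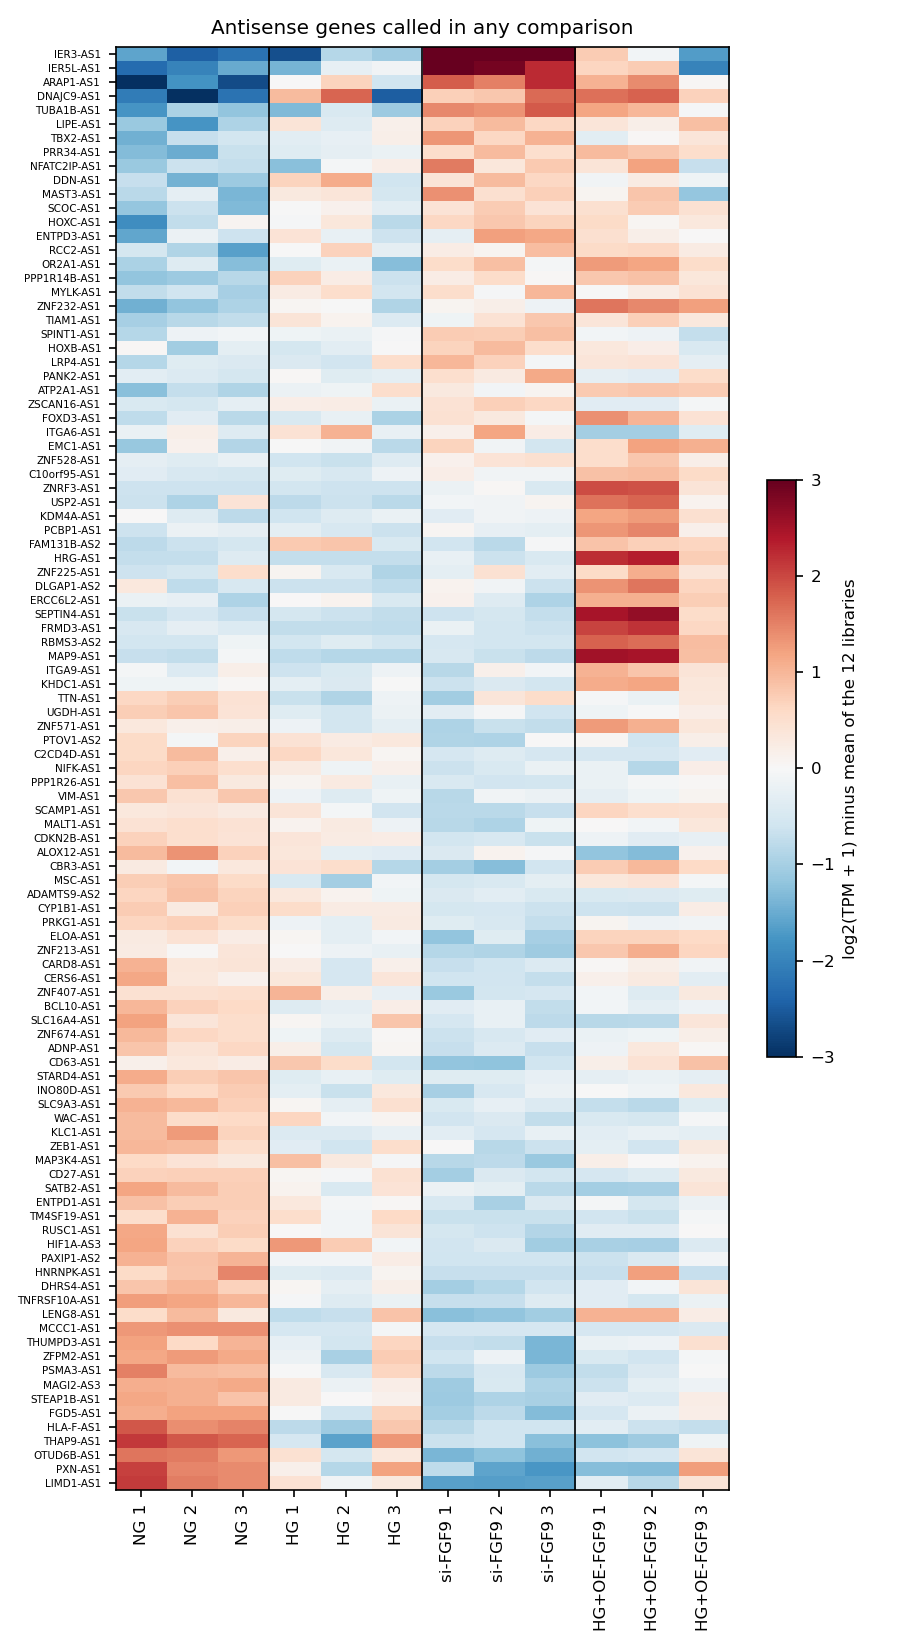
log2(TPM + 1) of the 103 antisense genes called in at least 1 comparison (lines) in the 12 libraries (columns), as the difference from each gene's mean over the libraries, limited to -3 and 3 in colour and sorted by the difference between si-FGF9 and NG. Reds at the top mark genes high in si-FGF9, a middle block is high in HG+OE-FGF9 libraries 1 and 2, and the lower part is high in NG. These are TPM as deposited, on which 54 genes were lower in si-FGF9 than in NG, against 12 with the median of ratios.

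In HG+OE-FGF9 versus HG, 6 rises stood out by size. MAP9-AS1, opposite the gene of a spindle protein, had 9.42, 9.13 and 2.37 TPM in HG+OE-FGF9 and at most 0.73 in the other 9 libraries, SEPTIN4-AS1 8.31, 9.33 and 1.46 and at most 0.18, and HRG-AS1 6.64, 7.44 and 1.76 and at most 0.42. FRMD3-AS1 had 6.21, 7 and 1.72 TPM and at most 0.56 elsewhere, ZNRF3-AS1 5.07, 4.87 and 1.06 and at most 0.61, and RBMS3-AS2 4.01, 3.71 and 1.81 and at most 0.34. These 6 genes reached the required level through HG+OE-FGF9 alone, so that a difference was bound to be seen. HRG-AS1 was listed at 0 in all 3 HG libraries, and the log2 fold changes of the other 5 were 2.79, 2.53, 2.35, 2.00 and 1.95. None of the sense genes MAP9, SEPTIN4, FRMD3, ZNRF3 and RBMS3 was called in this comparison, with values from -0.96 to -0.03, and HRG, which encodes a plasma protein of the liver, was at 0.06 TPM or less.

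Library 3 of HG+OE-FGF9 was the lowest of its group in 22 of the 23 rises and in 143 of all 353 antisense genes. The summed TPM of the rises without TUBA1B-AS1 was 246.88, 250.19 and 145.11 in HG+OE-FGF9, 46.9 to 55.12 in NG, 53.11 to 62.63 in HG and 80.8 to 105.17 in si-FGF9. The same library had the lowest sum of small RNAs in its group (4869 TPM against 15896 and 15933). In 15 of the 23 genes all 3 HG+OE-FGF9 libraries were above all other 9 libraries. Without library 3 the count of calls was 42 (33 higher, 9 lower) and without HG+OE-FGF9 library 2 it was 19. Whether the small RNA share of these libraries has a part in these values was not tested.

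**Figure D4:**
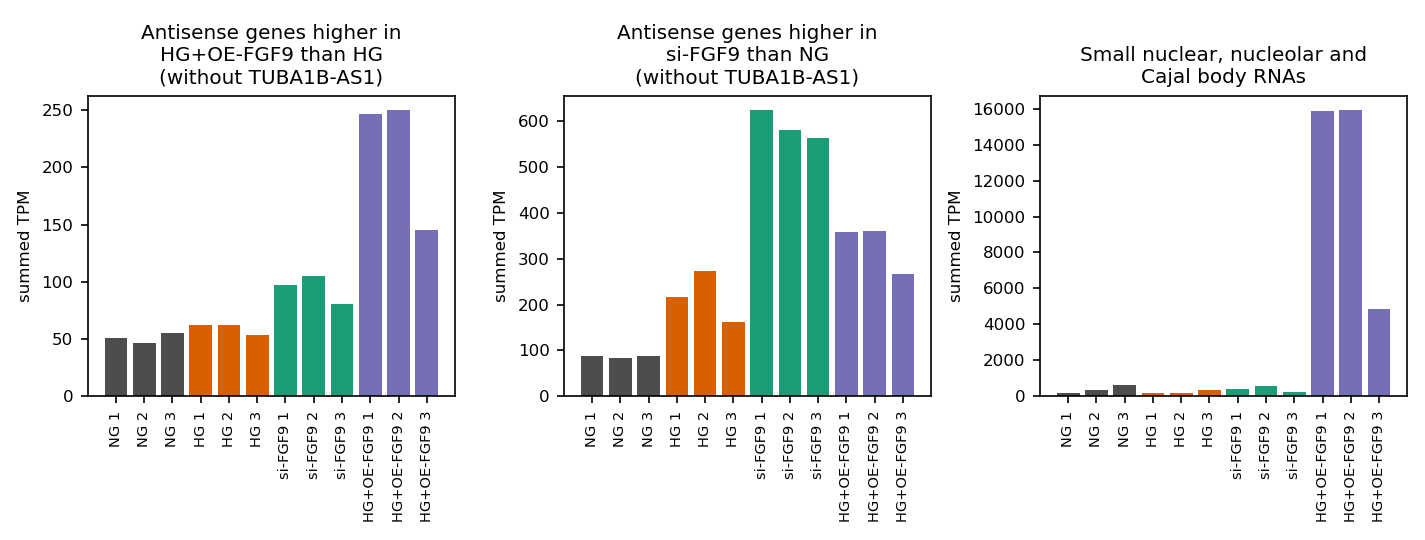
Summed TPM per library (bars, from 0) of the antisense genes that rose in HG+OE-FGF9 versus HG, of those that rose in si-FGF9 versus NG (both without TUBA1B-AS1), and of 68 small nuclear, nucleolar and Cajal body RNAs. HG+OE-FGF9 library 3 was at 145.11 in the first panel and 4869 in the third, below libraries 1 and 2 in both. The si-FGF9 libraries were highest in the second, at 564 to 625 against 83.5 to 88.8 in NG. The genes of the first 2 panels were chosen by their rise in these libraries, so a higher sum in the group where they rose was set by the choice.

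On log2(TPM + 1), 2 antisense genes fell in HG+OE-FGF9, against 11 with a pseudocount of 0.1 and 9 without HG+OE-FGF9 library 3. HIF1A-AS3, which starts beyond the end of HIF1A and runs back across it without sharing exons, at chr14:61715558-61751097, had 31.46, 22.05 and 20.14 TPM in NG, 34.16, 23.32 and 12.39 in HG, 6.32, 6.15 and 9.76 in HG+OE-FGF9 and 8.58, 9.57 and 5.93 in si-FGF9. HG overlapped NG, and the other 2 groups lay below both. It fell by 1.45 ± 0.33 (SE) in HG+OE-FGF9 (limma, adjusted p = 0.0181) and by 1.50 ± 0.33 in si-FGF9 (adjusted p = 0.00136), the latter not called with the median of ratios (-0.54) or the GC correction (-0.68). HIF1A, the oxygen-regulated subunit of hypoxia-inducible factor, was at 415.81 to 516.73 TPM in NG, 37.16 to 216.03 in HG and 25.65 to 47.93 in si-FGF9, so that it fell by 2.43 in HG, where its antisense gene was at -0.16. ITGA6-AS1, opposite an integrin gene, was at 1.77, 3.19 and 0.75 TPM in HG and 0, 0 and 0.59 in HG+OE-FGF9 (log2 fold change -1.23, limma adjusted p = 0.0496), a call that was lost with the GC correction (-1.13), without HG library 1 or 2 or without HG+OE-FGF9 library 1 or 2.

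Over the 287 pairs with a tested sense gene, the log2 fold change of the antisense gene was above that of the sense gene in 194 pairs (HG), 211 pairs (si-FGF9) and 204 pairs (HG+OE-FGF9), the order kept for the values that follow. The median difference was 0.38, 0.83 and 0.32. The antisense median was -0.14, -0.26 and 0.13 and the sense median -0.55, -1.04 and -0.18. Where both genes had a mean TPM of at least 5, which applied to 34 pairs, the antisense value was the higher in 20, 24 and 26. In 106 head to head pairs it was the higher in 78, 83 and 84. The lower level of most antisense genes limits their fold changes on this scale, and its part in these differences was not tested.

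Both genes of a pair were called lower in 4 pairs in HG, then 26 in si-FGF9, then 0 in HG+OE-FGF9, and both higher in 1, 2 and 0. These counts stand beside large numbers of sense genes that fell, 148 of the 287 (51.6%) in si-FGF9. There the sense gene fell in 26 of the 46 pairs with a falling antisense gene (56.5%) and in 8 of the 18 with a rising one (44.4%), shares near that of all pairs. In HG, 89 sense genes fell (31%), 4 of them facing one of the 11 antisense falls and 0 facing one of the 5 rises. Across the 287 pairs, Spearman's rho between the fold changes of antisense and sense gene was 0.15, 0.13 and 0.14 in the same order. The pairs share libraries and are not independent. The coefficient was 0.18, 0.09 and 0.06 in the 213 pairs with exon overlap and 0.14, 0.30 and 0.50 in the 50 pairs that overlapped without shared exons.

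**Figure D5:**
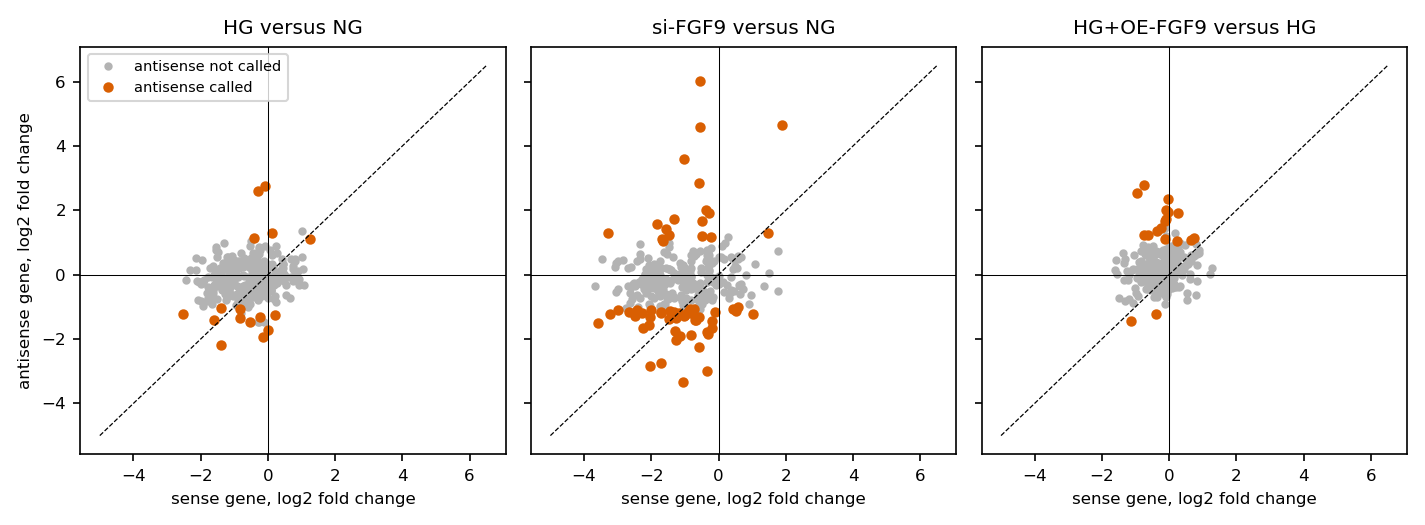
log2 fold change of each antisense gene (vertical) against that of its sense gene (horizontal) for the 287 pairs tested, in each comparison, with called antisense genes in orange and a dashed line where both are equal. More points lie above the line than below it (194 of 287 in HG, 211 in the si-FGF9 panel and 204 in the HG+OE-FGF9 panel) on the TPM as deposited, and points spread along the horizontal axis with the antisense value near 0.

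The calls were also counted by exon arrangement, without a test. Of the 254 genes with shared exons, 19 were called in HG, then 61 in si-FGF9, then 17 in HG+OE-FGF9, and the counts that follow keep this order. Of all antisense genes 6.80%, 22.7% and 7.08% were called, and of all genes tested 24.4%, 47.6% and 5.61%. Of the 63 without shared exons, the counts were 3, 13 and 5, and of the 23 that do not overlap 1, 4 and 3. Among the 39 genes with over 50% of their exon bases under opposite exons, 5, 10 and 4 were called, and among the 75 with none 4, 15 and 8. For head to head genes, 7, 21 and 5 of 111 were called, and 16, 57 and 20 of the 229 others.

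A list of 30 antisense genes of kidney, matrix, growth factor and hypoxia genes, or with a role known from other cells, was read whether its genes moved or not. Of these, 15 met the level. The list was read against the shares of all genes called (24.4%, 47.6% and 5.61%) and of all antisense genes called (6.80%, 22.7% and 7.08%), in the order HG, si-FGF9, HG+OE-FGF9. In HG, 1 rose (ARAP1-AS1) and 1 fell (PSMA3-AS1). In si-FGF9, 1 rose (ARAP1-AS1) and 5 fell (PSMA3-AS1, HIF1A-AS3, ZEB1-AS1, ADAMTS9-AS2 and CDKN2B-AS1), and in HG+OE-FGF9 1 fell (HIF1A-AS3). Of the 15 that missed the level, TGFB2-AS1 reached at most 1.73 TPM and THBS1-AS1 at most 1.07.

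PSMA3-AS1, which overlaps the gene of a proteasome subunit, had 30.74, 20.42 and 19.79 TPM in NG, 10.08, 7 and 16.45 in HG, then 5.44, 7 and 4.17 in si-FGF9. It fell by 1.06 in HG (limma, adjusted p = 0.0127) and by 1.91 in si-FGF9 (adjusted p = 0.00014), and after the GC correction the value was 0.02 in HG, with the sign turned, and -0.28 in si-FGF9, not called. The median of ratios ended both calls (-0.58 and -0.97), and that in HG was also lost with 6 libraries alone, without NG library 1 or without HG library 1 or 2. ZEB1-AS1, opposite a regulator of epithelial-mesenchymal transition, was at 3.31 to 4.94 TPM in NG and 0.67 to 1.99 in si-FGF9 and fell by 1.32, a call lost with the median of ratios (-0.62) and the GC correction (-0.12), while ZEB1 fell by 2.02. CDKN2B-AS1, also called ANRIL, in the cluster of the p15 and p16 cell cycle inhibitors, went from 2.52 to 3.29 TPM in NG to 0.66 to 0.91 in si-FGF9 and fell by 1.11, but had the opposite sign, 0.24, after the GC correction. ADAMTS9-AS2 went from 1.27 to 1.66 TPM to 0.05 to 0.16 and fell by 1.14. After the GC correction it had 0.12, at a level where the correction by its construction adds differences. ADAMTS9-AS2 met the level through NG alone, so a fall was bound to be seen. Neither CDKN2B-AS1 nor ADAMTS9-AS2 was called with the median of ratios. CDKN2B and ADAMTS9 fell in the same comparison, by 2.00 and 1.45.

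The remaining genes of the list were not called in any comparison in the fit of all 12 libraries on log2(TPM + 1). MAPKAPK5-AS1, head to head with a stress kinase gene and the fifth most abundant antisense gene, had 54.84, 51.86 and 57.54 TPM in NG, 36.06, 31.22 and 50.21 in HG, 76.29, 72.44 and 62.22 in HG+OE-FGF9 and 46.45, 45.01 and 42.99 in si-FGF9. HG and HG+OE-FGF9 did not overlap, with a log2 fold change of 0.85 (limma, adjusted p = 0.00966) below the size required, where 22.1% of all genes did not overlap. MAPKAPK5 fell in HG and si-FGF9, by 1.15 and 1.58. PAX8-AS1, opposite the nephron transcription factor PAX8, was split within HG, at 0.95, 0.75 and 24.72 TPM, with 9.37 to 16.01 in NG, and PAX8 was at 60.94 to 79.06 in both groups. PAX8 fell by 1.31 in HG+OE-FGF9 versus HG, and its -0.97 in si-FGF9 versus NG was not called. LOXL1-AS1 had 20.27 to 27.7 TPM in NG and 16.43 to 23.31 in HG, with LOXL1, a crosslinker of elastin, at 21.74 to 26.83 and 32.99 to 61.75. LOXL1 had 0.93 in HG and 0.54 in si-FGF9, neither called, and fell by 1.25 in HG+OE-FGF9 versus HG. OIP5-AS1, known as the cyrano homologue, had 20.54 to 24.88 TPM in NG and 8.37 to 12.93 in si-FGF9, a log2 fold change of -0.96 that stayed short of the size required. It was called lower there with a pseudocount of 0.1 (-1.02) and without si-FGF9 library 2 (-1.08).

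NR2F1-AS1, FOXD2-AS1, ITGB2-AS1, MCM3AP-AS1 and TMPO-AS1 had values between -1.04 and 0.93 in the 3 comparisons. With the median of ratios, NR2F1-AS1 (1.16), FOXD2-AS1 (1.56), LOXL1-AS1 (1.19) and the abundant EPB41L4A-AS1 (1.61) were called higher in si-FGF9, where the TPM as deposited gave 0.25, 0.68, 0.20 and 0.58. Without HG library 3, PAX8-AS1 (-2.74), ZEB1-AS1 (-1.30) and OIP5-AS1 (-1.12) were called lower in HG, and PAX8-AS1 (1.74), NR2F1-AS1 (1.37) and MAPKAPK5-AS1 (1.04) higher in HG+OE-FGF9. TMPO, a protein of the nuclear lamina head to head with TMPO-AS1, fell by 1.43 in HG and by 2.76 in si-FGF9, where its antisense gene had 0.19 and -1.04, not called. In si-FGF9 TMPO-AS1 was called lower with the 6 libraries of that comparison alone, and with a limit of 0.05 on the unadjusted or adjusted p. Of the abundant genes outside the list, EPB41L4A-AS1, a host of small nucleolar RNA, was at 42.45 to 155.14 TPM with its sense gene at 0.92 or less, and FOXD1-AS1, which lies wholly under opposite-strand exons, was at 51.32 to 90.33 TPM. FOXD1-AS1 had -0.25 in si-FGF9 on the TPM as deposited and 1.31, in the other direction, after the GC correction.

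The groups compared did not overlap in 23 of the 24 antisense genes called in HG, 78 of 80 in si-FGF9 and 25 of 25 in HG+OE-FGF9. The rule of a call makes this likely in advance, so these counts add no support to the calls. Over all antisense genes, 110, 180 and 96 of 353 did not overlap, where this held for 57.2%, 76.4% and 22.1% of all genes tested. The HG count rested on single libraries, with 12 called without HG library 2 and 45 without HG library 3.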

How the data were processed

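Total RNA of HK2 cells was sequenced on an Illumina instrument. The 12 libraries fell into 4 groups of 3 by their titles. The authors deposited TPM per Ensembl gene, with no counts, so the depth of the libraries is unknown. The submitters' processing notes name Bowtie 0.12.2 and the mouse build mm8, although the identifiers are human. The quantification tool, annotation and strand setting are not given in the sources used here.

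Identifiers were matched to symbols for 62625 of 62703 genes. Genes that reached a TPM of 1 in 3 libraries, 14639 in all, entered limma 3.58.1 (R 4.3.3). The fit used log2(TPM + 1), let the variance follow the mean, and took all 12 libraries together with the group as the only term. Calls needed a log2 fold change of at least 1 and an unadjusted p under 0.01, and Benjamini-Hochberg adjusted p were taken over all genes tested. The fit was tested on simulated data. Gene positions and GC content came from GENCODE release 29 on GRCh38, with a GC content for 96.9% of the genes tested and 350 of the antisense genes. The build behind the files may differ. The GC correction subtracted a natural spline with 5 degrees of freedom from each library.

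Named genes are the 5 with the highest mean TPM, the 6 largest rises and 6 largest falls without overlap in each comparison, a list of 30 genes with a link to the kidney or a known role, and the genes next to the level of choice. Some markers, listed genes and sequences are not reported here. The members and lists were chosen with earlier results of these data known. The alternatives were no filter, 6 libraries per fit, a replicate block, other thresholds on p, a pseudocount of 0.1, the median of ratios, the GC correction without and with the block, no variance trend, and each library left out. Plots were drawn with matplotlib 3.10.9 in Python 3.11.15.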

Additional observations from a re-analysis of the deposited data

How the results depend on the processing

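The balance of rises and falls among the antisense genes depended on scaling in 2 comparisons. The calls in HG versus NG, 24 on the TPM as deposited, numbered 20 with the median of ratios, 29 with the GC correction and 30 with the GC correction and replicate block, with more higher than lower in each of these. In si-FGF9 versus NG the 80 calls became 95, 100 and 98 under the same 3 settings, again mostly higher. Leaving out each library gave 12 to 45 calls in HG versus NG, 69 to 86 in si-FGF9 versus NG, and 19 to 42 when HG+OE-FGF9 was compared with HG. The cause was not tested. The total of antisense calls stayed within 1.5 times under the other settings. By direction, the rises in HG were 3 with 6 libraries alone, and the falls in HG+OE-FGF9 were 11 with a pseudocount of 0.1. Over all genes, the 3570 calls in HG versus NG were 2303 with the median of ratios, 970 with the GC correction and 2238 without HG library 2, the 6966 in si-FGF9 versus NG were 3452 with the GC correction, and the 821 in HG+OE-FGF9 versus HG were 1360 without HG library 2, 1617 without HG+OE-FGF9 library 3 and 549 without HG+OE-FGF9 library 2, with 391 falls becoming 694 with a pseudocount of 0.1 and 233 with 6 libraries alone.

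Of the log2 fold changes of named genes, the GC correction, with or without the block, turned PSMA3-AS1 in HG versus NG (0.0247) and, in si-FGF9 versus NG, RBMS3-AS2 (1.50), CDKN2B-AS1 (0.24), ADAMTS9-AS2 (0.12) and FOXD1-AS1 (1.31). RBMS3-AS2 was listed at 0 in 2 libraries of each of these groups, where the correction by its construction adds differences. The same holds for other genes at or near 0, among them MCCC1-AS1, TNFRSF10A-AS1 and ADAMTS9-AS2. Over all alternatives, 1997 values of named genes kept their direction and side of the threshold, 68 lost a call, 37 gained it and 10 turned.

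Libraries of the same number did not deviate together: of 18 pairs of libraries with the same number, 3 had a correlation of deviations over 0.1, within a range of -0.44 to 0.25, so the numbers were not taken as pairing. With the replicate block the calls were 21, 79 and 24 in the 3 comparisons, and those of DNAJC9-AS1 and FAM131B-AS2 in HG were lost. Depth is unknown, so values near a TPM of 1 carry a counting error that could not be given.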
